A study of Rattus with 12 samples.

Results

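The genes described here are 2 endothelin receptors (Ednrb and Ednra), 2 endothelin ligands (Edn1 and Edn3) and 3 further receptors for neuropeptides and peptide hormones (Prlhr, Cckbr and Mas1). They were found by symbol among the 17337 genes of the count table, and all 7 were present. Ednrb, Prlhr, Cckbr and Mas1 were selected because the study names them from the high dose values of these same cultures, so their differences between doses are given as a description with no test. Edn1, Edn3 and Ednra were added for their place in the same pathway and were tested.

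Endothelins are short peptides that are cut from longer precursors by endothelin converting enzymes and act on G protein-coupled receptors. Edn1 is best known as a vasoconstrictor made by blood vessels and, after injury, by astrocytes, while Edn3 binds the B receptor as well as Edn1 does but the A receptor weakly. In brain, the B receptor encoded by Ednrb is abundant on astrocytes, where it takes part in reactive responses and in gap junction coupling. Cckbr is the main receptor for cholecystokinin in brain, Prlhr is the receptor for prolactin-releasing peptide, and Mas1 is the receptor for a shortened angiotensin peptide.

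RNA was sequenced from 12 complex cultures of Sprague Dawley rat cells that were grown from commercial primary cortical neurons, astrocytes and oligodendrocyte precursor cells (OPCs). The 3 conditions were no fentanyl (untreated, cultures A, G, M and P), 0.01 μM fentanyl (low dose, cultures B, H, N and Q) and 10 μM fentanyl (high dose, cultures C, I, O and R), with 4 cultures each and 4 days of exposure. Fentanyl is a synthetic opioid that activates the mu opioid receptor, and the comparisons ask what each dose did to gene expression in the mixed cultures. By their letters the cultures form 4 letter sets with 1 culture per dose, written here as ABC, GHI, MNO and PQR, and what a set stands for is not given in the sources used here. It is also not given whether cultures of a condition came from separate preparations, so p-values measure only the spread between these cultures.

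Cultures had between 12059872 and 24813893 counts in all, so that a count of 3, taken as the floor, equals 0.124 to 0.249 counts per 1000000 counts (CPM). Of the members, 6 were among the 12271 genes kept by a filter on low counts, and Edn3 was not. Untreated culture G stood apart from the others, with neuron markers (13 genes) summing to 268 CPM against 3457 to 5236 CPM in the other 11 cultures. For the members and the genes most affected, untreated means and fits against untreated are also given without G. Endothelial cell markers (8 genes) summed to 64.0 CPM in G and to 4.32 to 15.5 CPM elsewhere. Of these genes Cdh5 (0 to 439 counts), Cldn5 (0 to 20) and Emcn (0 to 10) had cultures at 0 counts. The others were counted in every culture, Kdr with 23 to 196, Esam with 10 to 130, Tek with 4 to 15, Pecam1 with 2 to 82 and Flt1 with 1 to 237 counts.

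Ednrb had 2030 to 12894 counts per culture, and letter set PQR carried the highest level at each dose. In untreated cultures A, G, M and P it stood at 328.5, 173.9, 356.6 and 716.0 CPM. Low dose cultures B, H, N and Q had 320.0, 249.1, 177.4 and 789.3 CPM, and high dose cultures C, I, O and R had 239.2, 167.0, 130.9 and 533.2 CPM. The conditions overlapped widely, with means of 394 ± 229 (SD, n = 4), 384 ± 276 and 268 ± 183 CPM, and without G the untreated mean was 467 ± 216 CPM (n = 3).

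Within the letter sets the picture for Ednrb was more even. At the high dose its CPM lay below that of the low dose culture of the same set by 25.2% in ABC, 32.9% in GHI, 26.2% in MNO and 32.5% in PQR. On the scale of log2(CPM + 1) these differences averaged -0.50 ± 0.08 (SD over the 4 sets). Against the untreated cultures the high dose was lower in the 4 sets as well, but unevenly, by 27.2% in ABC, 3.96% in GHI, 63.3% in MNO and 25.5% in PQR. The low dose against untreated had no common direction, since Ednrb was lower in ABC and MNO and higher in GHI and PQR. Letter sets held 79.5% of the variance of log2(CPM + 1) of Ednrb and the conditions 10.5%.

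**Figure D1:**
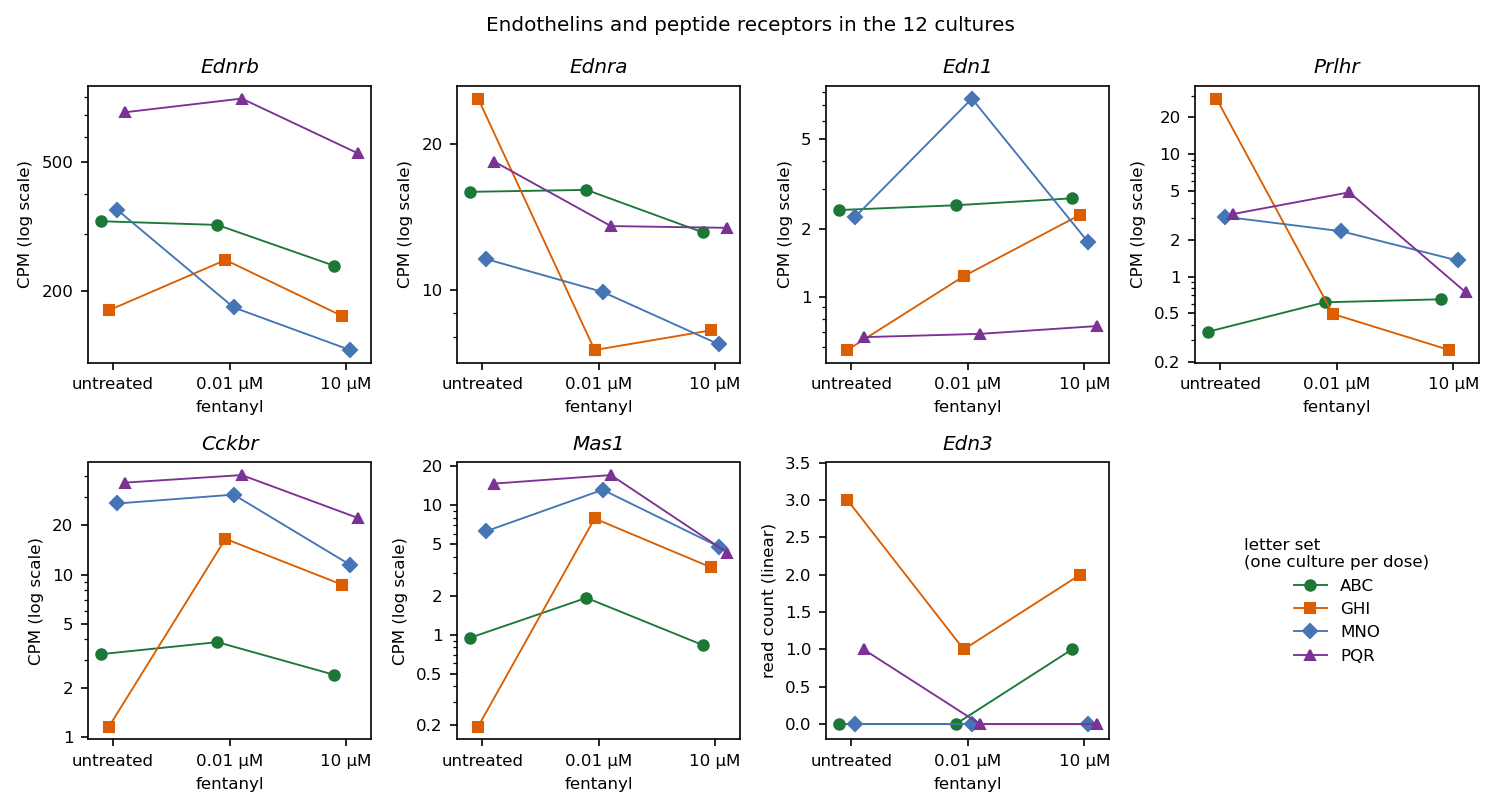
Level of each gene in the 12 cultures, with fentanyl dose on the x axis and CPM on a log scale on the y axis (for Edn3, the read count on a linear scale). Each point is 1 culture and each line joins the cultures of a letter set. Ednrb, Cckbr and Mas1 lay lower at 10 μM than at 0.01 μM in each of the 4 sets. The value of culture G (untreated, set GHI) for Prlhr (28.5 CPM) lay far from those of the other untreated cultures. For Mas1, culture G (0.19 CPM) was the lowest untreated culture, with A (0.94 CPM) nearest to it.

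Fewer cells of a type and less RNA of a gene per cell cannot be told apart in bulk RNA from mixed cultures. Astrocyte markers (10 genes, Gfap and Aqp4 among them) summed to 3628 to 10274 CPM in untreated, 3319 to 11856 CPM in low dose and 2215 to 8353 CPM in high dose cultures. From the low to the high dose their sum was lower in 3 sets, with log2 differences of 0.02 in ABC, -0.55 in GHI, -0.58 in MNO and -0.51 in PQR. In ABC, Ednrb was 25.2% lower at the high dose while the astrocyte sum was level. Per 1000 CPM of astrocyte markers, Ednrb took 90.6, 21.6, 79.8 and 69.7 CPM in untreated cultures A, G, M and P, then 67.8, 57.1, 53.5 and 66.6 CPM in low dose cultures and 50.0, 56.2, 59.1 and 63.8 CPM in high dose cultures. On this scale the low and high dose cultures overlapped and the difference within a set had no common direction, since the ratio was lower at the high dose in ABC, GHI and PQR and higher in MNO. Over the 12 cultures the Spearman rho of Ednrb with the astrocyte sum was 0.75 and, without G, 0.86. With the microglia sum (9 genes) it was -0.85, and with the endothelial sum -0.80. These points share letter sets and libraries, and the part of cell composition in the level of Ednrb was not tested.

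**Figure D2:**
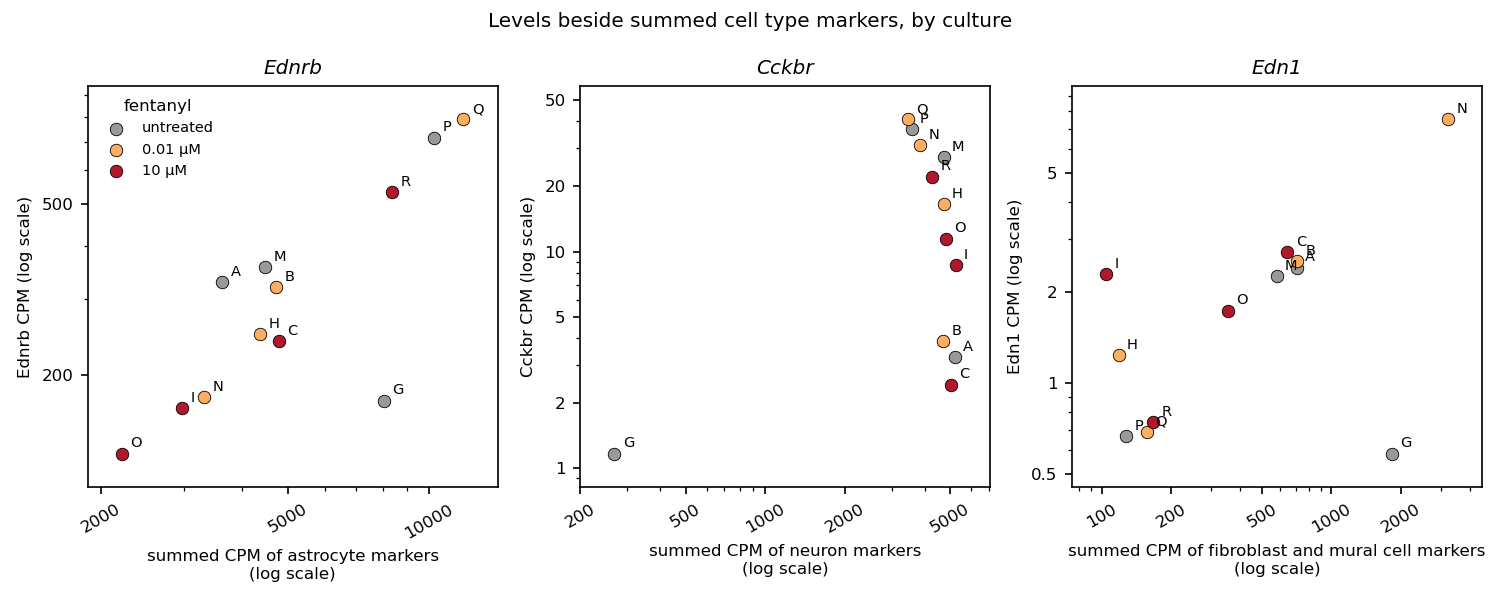
Level of Ednrb, Cckbr and Edn1 (y axes, CPM, log scale) against the summed CPM of astrocyte, neuron, and fibroblast and mural cell markers (x axes, log scale), with 1 point per culture, its letter beside it and the colour giving the dose. Ednrb followed the astrocyte sum apart from culture G, Cckbr was lowest (1.17 CPM) in culture G, where the neuron sum was 268 CPM, but in the other 11 cultures it lay lower where that sum was higher (rho -0.84). Edn1 and the fibroblast and mural cell sum both peaked in culture N, but G, second in that sum, had the lowest Edn1.

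Ednra, the receptor that mediates constriction of vascular smooth muscle, had 120 to 382 counts per culture. Untreated cultures A, G, M and P had 15.9, 24.8, 11.6 and 18.4 CPM. Low dose cultures had 16.1, 7.54, 9.92 and 13.5 CPM, and high dose cultures 13.2, 8.27, 7.74 and 13.4 CPM. The means were 17.7 ± 5.51, 11.8 ± 3.79 and 10.6 ± 3.06 CPM, and untreated and high dose cultures overlapped through culture M. Within the sets Ednra was lower at the high dose than without fentanyl in 4 of 4, by 0.26, 1.48, 0.53 and 0.42 on the log2(CPM + 1) scale. The quasi-likelihood test of edgeR gave a log2 fold change of -0.65 ± 0.32 (SE) for high dose vs. untreated, which missed the threshold (unadjusted p = 0.0672, adjusted p = 0.9999 over all genes). An exact two-sided permutation test of the means of log2(CPM + 1) gave p = 0.0857 (0.771 after Benjamini-Hochberg adjustment, as for each of the 9 permutation tests), where 70 arrangements allow no p below 0.0286. With 1 of the 8 cultures left out the exact permutation p ranged from 0.0286 to 0.171. The lowest was reached without M, the untreated culture that overlaps the high dose, so that its removal leaves no overlap and adds no support. Low dose vs. untreated had a log2 fold change of -0.51 ± 0.32 (edgeR adjusted p = 0.99997, exact permutation p = 0.171) and high dose vs. low dose one of -0.14 ± 0.31 (edgeR adjusted p = 0.9999, exact permutation p = 0.657). Fibroblast and mural cell markers (10 genes) summed to 1836 CPM in G, where Ednra was highest, but to 3212 CPM in culture N, where Ednra had 9.92 CPM. The Spearman rho of Ednra with this sum was 0.38 over the 12 cultures and 0.26 without G. With the astrocyte sum it was 0.68 and 0.67 in the same order. With the neuron sum it was -0.55 and -0.42, and with the microglia sum -0.43 and -0.79. The part of cell composition in the level of Ednra was not tested. Without G the untreated mean of Ednra was 15.3 ± 3.44 CPM (n = 3), and its log2 fold change in high dose vs. untreated was -0.51.

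The ligand Edn1 had 8 to 115 counts per culture. Untreated cultures A, G, M and P had 2.42, 0.58, 2.26 and 0.67 CPM. Low dose cultures had 2.54, 1.24, 7.51 and 0.69 CPM, and high dose cultures 2.72, 2.31, 1.74 and 0.74 CPM. The high value belonged to culture N alone, and the 3 cultures of set PQR were nearly level. Low dose vs. untreated differed by a log2 fold change of 1.01 ± 0.78 (edgeR adjusted p = 0.99997, exact permutation p = 0.4), and without N by -0.26. High dose vs. untreated differed by 0.32 ± 0.78 (edgeR adjusted p = 0.9999, exact permutation p = 0.514), and without G by -0.08. High dose vs. low dose differed by -0.69 ± 0.77 (edgeR adjusted p = 0.9999, exact permutation p = 0.771), and without N by 0.45. Culture N also had the highest sum of fibroblast and mural cell markers, at 3212 CPM, but culture G, with the next highest sum of 1836 CPM, had the lowest Edn1. The Spearman rho of Edn1 with this sum was 0.41 over the 12 cultures and 0.73 without G. With the endothelial sum it was 0.27 and 0.65 in the same order, and with the OPC sum -0.85 and -0.81. The part of any of these cells in Edn1 was not tested. Edn1 was higher at the low dose than without fentanyl in the 4 sets, though by only 0.05 in ABC and 0.02 in PQR on the log2(CPM + 1) scale.

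Edn3 had 4 counts over the untreated cultures together, 1 over those at the low dose and 3 over those at the high dose. No culture had more than 3 counts, which is the floor, and 7 of the 12 had none, so that a difference in Edn3 was not detectable at this depth. The exact permutation p was 0.429 between the low dose and untreated cultures, and 0.714 for the high dose against either of them. Edn2, the remaining endothelin, had 0 counts in the 12 cultures.

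The enzymes that make and break endothelins were measured beside the receptors, and none was called in any comparison. Ece1, which releases the active peptides, had means of 168 ± 62.9, 141 ± 36.1 and 141 ± 39.4 CPM in untreated, low dose and high dose cultures. Its untreated mean became 141 ± 38.2 CPM when G was left out (n = 3). The log2 fold changes of Ece1 against untreated were then -0.01 at the low dose and -0.02 at the high dose. Ece2, a neuronal converting enzyme, had 27.1 ± 2.21, 28.3 ± 6.64 and 27.0 ± 4.78 CPM. Ecel1, a relative expressed in neurons with no known part in endothelin cleavage, had 8.16 ± 4.26, 9.69 ± 1.78 and 6.02 ± 1.79 CPM. It was lower at the high than at the low dose in the 4 letter sets, as were 11.1% of all genes kept. The log2 fold change of Ecel1 was -0.68 ± 0.30 and did not pass the test (unadjusted p = 0.0474, adjusted p = 0.9999, edgeR). Mme (neprilysin), which degrades endothelins and other peptides, had 3.80 ± 3.49, 1.61 ± 0.74 and 1.44 ± 0.16 CPM, and its 2 highest values were the 7.52 CPM of untreated culture G and the 6.03 CPM of untreated culture M. Without G its untreated mean was 2.56 ± 3.01 CPM. Kel had at most 16 counts in a culture, and Cma1 had none.

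Cckbr varied more between letter sets than between doses. Untreated cultures A, G, M and P had 3.25, 1.17, 27.3 and 36.7 CPM, low dose cultures 3.85, 16.6, 30.9 and 40.8 CPM, and high dose cultures 2.43, 8.67, 11.5 and 22.2 CPM. The cultures of ABC lay below 4 CPM at each dose, and the conditions overlapped. At the high dose Cckbr was lower than at the low dose by 36.9%, 47.6%, 62.9% and 45.6% in ABC, GHI, MNO and PQR. Against untreated, the high dose was lower in ABC, MNO and PQR and higher in GHI, where culture G had its 1.17 CPM. Mean levels were 17.1 ± 17.6, 23.0 ± 16.2 and 11.2 ± 8.26 CPM, and without G the untreated mean was 22.4 ± 17.2 CPM. Letter sets held 73.2% of the variance of its log2(CPM + 1), and 90.4% when set GHI was left out.

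The neuron markers did not follow this pattern. From the low to the high dose their sum was higher in each set, with log2 differences of 0.10 in ABC, 0.15 in GHI, 0.32 in MNO and 0.30 in PQR, while Cckbr was lower. Per 1000 CPM of neuron markers, Cckbr took 0.63, 4.35, 5.79 and 10.3 CPM in untreated cultures A, G, M and P, 0.82, 3.51, 8.05 and 11.8 CPM in low dose cultures B, H, N and Q, and 0.48, 1.66, 2.39 and 5.22 CPM in high dose cultures C, I, O and R. On this scale the high dose lay below untreated in each set, GHI included, where the plain CPM was higher. The order in GHI rested on culture G, where 18 counts of Cckbr were set against a neuron sum of only 268 CPM. The Spearman rho of Cckbr with the neuron sum was -0.41 over the 12 cultures and -0.84 without G. With the OPC sum it was 0.33 and 0.73, and with the oligodendrocyte sum 0.59 and 0.52. Since the neuron sum was higher at the high than at the low dose, dividing by it widens the difference in Cckbr between the doses. The part of cell composition in the level of Cckbr was not tested. The ligand gene Cck had 49.9 ± 39.6, 63.3 ± 16.2 and 49.9 ± 8.75 CPM. Untreated culture G had only 0.58 CPM of Cck, and the others lay between 40.8 and 97.0 CPM, so that without G the untreated mean was 66.3 ± 26.9 CPM. Gastrin (Gast), the other ligand of Cckbr, had at most 2 counts in a culture.

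Mas1 tracked Cckbr across the cultures. Untreated cultures A, G, M and P had 0.94, 0.19, 6.31 and 14.7 CPM, low dose cultures 1.92, 7.91, 13.2 and 17.1 CPM, and high dose cultures 0.83, 3.31, 4.77 and 4.30 CPM. The 0.19 CPM of culture G rested on 3 counts, at the floor. At the high dose Mas1 was lower than at the low dose by 56.9%, 58.2%, 63.8% and 74.9% in ABC, GHI, MNO and PQR. From untreated to the low dose it was higher in the 4 sets, by 0.59, 2.90, 0.96 and 0.21 on the log2(CPM + 1) scale. Its means were 5.54 ± 6.70, 10.0 ± 6.60 and 3.30 ± 1.76 CPM, and without G the untreated mean was 7.32 ± 6.94 CPM. Per 1000 CPM of neuron markers Mas1 took 0.18, 0.72, 1.34 and 4.12 CPM in untreated, 0.41, 1.68, 3.43 and 4.95 CPM in low dose and 0.16, 0.63, 0.995 and 1.01 CPM in high dose cultures. As for Cckbr, the high dose was the lowest of the 3 conditions in each set on this scale. In GHI the order against untreated rested on culture G, where 3 counts of Mas1 were set against a neuron sum of only 268 CPM. The plain CPM of Mas1 in that set was higher at the high dose than in G. In ABC the untreated and high dose cultures had 16 and 14 counts of Mas1. The Spearman rho of Mas1 with Cckbr was 0.97 over the 12 cultures and 0.95 without G, as a description of cultures that share letter sets. With the neuron sum the rho of Mas1 was -0.36 and, without G, -0.76. With the oligodendrocyte sum it was 0.64 and 0.58, and with the OPC sum 0.24 and 0.61. The part of cell composition in the level of Mas1 was not tested.

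The angiotensin system around Mas1 was measured through its precursor, some of its enzymes and its other receptors. Agt, the precursor of the angiotensins, had 17.1 ± 7.43, 19.6 ± 9.38 and 15.1 ± 9.97 CPM. It was lower at the high than at the low dose in the 4 sets, as were 11.1% of all genes kept. Its log2 fold change between the doses was -0.35 ± 0.42 (SE) and was not called. Ace, which makes angiotensin II, had 216 CPM in untreated culture G and between 7.91 and 24.995 CPM in the other 11 cultures. Enpep, an aminopeptidase that trims angiotensin II, likewise had 22.4 CPM in G, while the low dose cultures reached 1.38 CPM and the high dose cultures 1.20 CPM. Lnpep, a further aminopeptidase, had 28.0 ± 2.48, 22.0 ± 8.29 and 29.2 ± 3.24 CPM. Agtr1a, an angiotensin II receptor, had at most 33 counts in a culture, Agtr2 had 1 count in all and Agtr1b none.

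Prlhr was low in 11 cultures and high in 1. Untreated cultures A, G, M and P had 0.35, 28.5, 3.09 and 3.24 CPM, low dose cultures 0.62, 0.49, 2.35 and 4.88 CPM, and high dose cultures 0.65, 0.25, 1.35 and 0.74 CPM. The untreated mean of 8.81 ± 13.2 CPM became 2.23 ± 1.62 CPM without G, and the means at the low and high dose were 2.09 ± 2.05 and 0.75 ± 0.46 CPM. The high dose mean was therefore 8.52% of the untreated mean with G and a CPM ratio of 0.34 without it. Within the sets, high vs. low dose differences on the log2(CPM + 1) scale were 0.03, -0.26, -0.51 and -1.75, the last in the set whose low dose culture Q had 4.88 CPM. Prlhr counts in the high dose cultures were 5 to 21. Its ligand gene Prlh had no count in the 12 cultures.

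**Figure D3:**
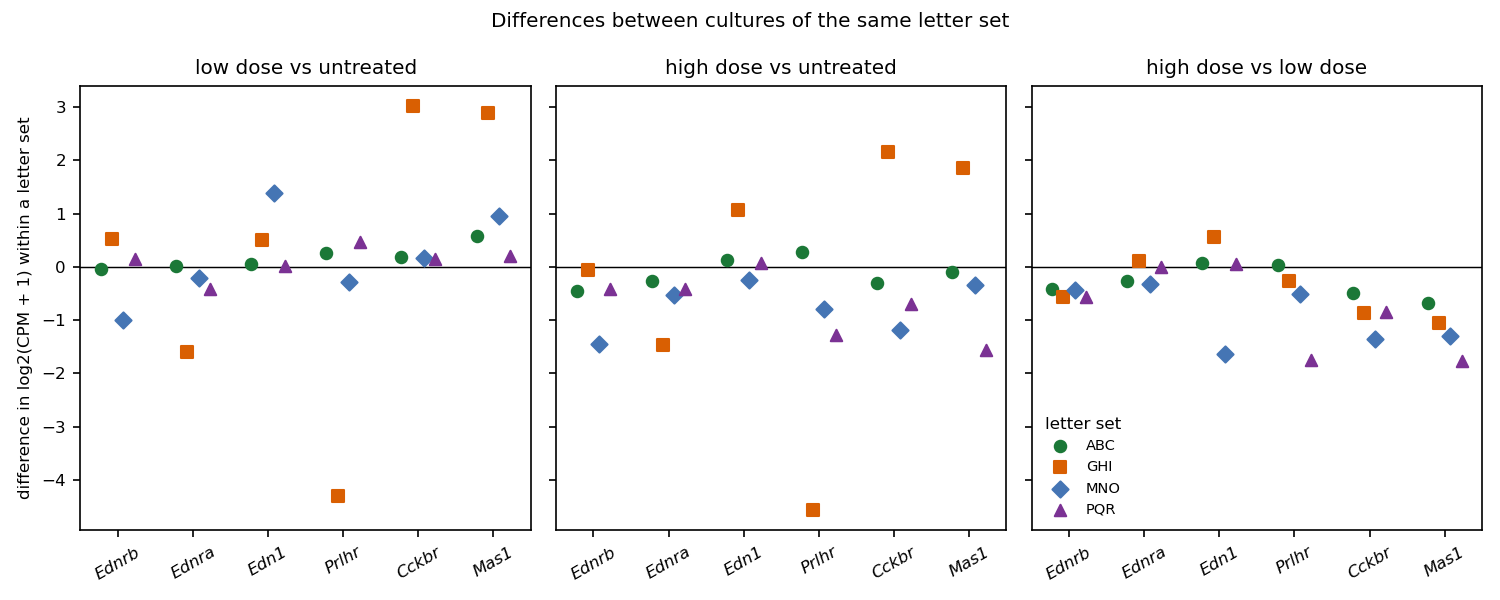
Differences in log2(CPM + 1) between cultures of the same letter set (y axis) for the 6 genes kept (x axis) in the 3 comparisons, with colour and symbol giving the set. In high dose vs. low dose the 4 points of Ednrb lay between -0.57 and -0.42, those of Cckbr between -1.36 and -0.50 and those of Mas1 between -1.77 and -0.68, while set GHI gave the extreme point of several genes in the comparisons with untreated.

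The fit across all genes called no member at an adjusted p under 0.05 with a log2 fold change beyond 0.5. It called no gene of the 12271 in any comparison (0% of genes at the low dose against untreated, 0% at the high dose against untreated and 0% between the doses). At an unadjusted p under 0.05 there were 91 genes (0.742%), 146 genes (1.19%) and 144 genes (1.17%) in the same order, none of them a member. These shares lie below the share of 0.05 that this threshold gives when no gene differs. The fit was therefore cautious, and the lack of calls does not show a lack of change. It had no term for the letter sets, but a fit with such a term and all cultures called no gene either. The cause of the low shares was not tested. DESeq2 called 0, 3 and 1 genes, none of them a member. The conditions of a comparison did not overlap in 0.407%, 0.685% and 1.19% of all genes kept, and in no member.

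In high dose vs. low dose the fitted log2 fold changes were -0.49 ± 0.47 (SE) for Ednrb, -1.14 ± 0.93 for Cckbr, -1.61 ± 0.94 for Mas1 and -1.62 ± 0.87 for Prlhr. Against untreated, the high dose values were -0.82 ± 0.50, -0.61 ± 0.93, -0.55 ± 0.95 and -1.94 ± 0.90 in the same order. At the low dose against untreated they were -0.33 ± 0.50, 0.53 ± 0.92, 1.06 ± 0.94 and -0.32 ± 0.88. Without G, the high dose against untreated gave -0.71 ± 0.39, -0.66 ± 0.57, -0.45 ± 0.61 and -1.12 ± 0.80, and the low dose against untreated gave -0.27 ± 0.39, 0.39 ± 0.57, 0.99 ± 0.60 and -0.02 ± 0.76. Without culture Q the fitted value of Ednrb between the doses was 0.08. That fit had no term for the letter sets and kept R, the high dose culture of PQR, without a low dose culture of that set. Within the sets the differences of Ednrb in log2(CPM + 1) were -0.42 in ABC, -0.57 in GHI, -0.44 in MNO and -0.57 in PQR. The 3 comparisons share cultures, so their signs are not independent of each other.

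Ednrb, Cckbr and Mas1 were lower at the high than at the low dose in 4 of 4 letter sets, a pattern that 11.1% of all genes kept had. Ednrb and Ednra were lower in 4 sets in high dose vs. untreated (5.22% of all genes), and Edn1, Cckbr and Mas1 were higher in 4 sets in low dose vs. untreated (4.06% of all genes). With 4 factors of unwanted variation in place of 1, Cckbr (log2 fold change -0.90 ± 0.12) and Mas1 (-1.44 ± 0.21) were among the genes called lower at the high than at the low dose, which were 0.383% of those tested. With a term for the letter sets and without culture G, Cckbr (-1.01 ± 0.13) was called in that comparison, as were 0.0973% of genes as lower. The same fits called 0.0407% and 0.0162% of genes as lower in high dose vs. untreated, and no member. Since these receptors were selected on this contrast, the calls add no independent evidence.

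**Figure D4:**
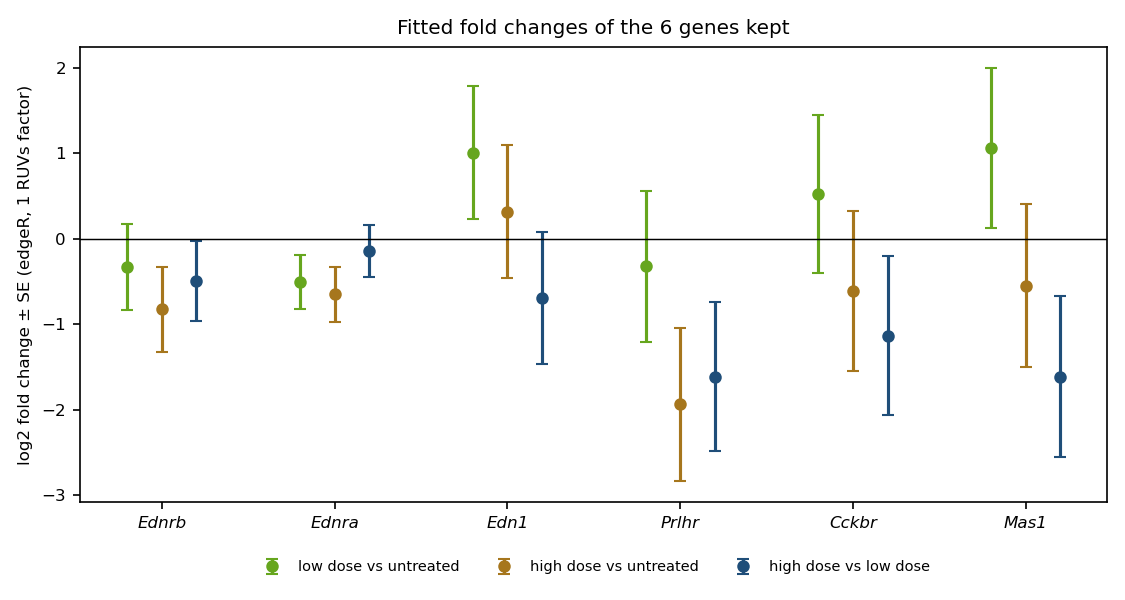
Fitted log2 fold change (y axis, bars show the SE) of the 6 genes kept (x axis) in the 3 comparisons, shown by colour, from edgeR with 1 factor of unwanted variation on all 12 cultures. The 6 points for high dose vs. low dose lay below 0, from -1.62 for Prlhr to -0.14 for Ednra, and none passed the test.

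The endothelin system list (11 genes, 7 kept) had 6 of 7 genes lower at the high dose against untreated, as were 49.2% of all genes kept. It holds Ednrb, which was selected from its high dose values, so these counts add no independent evidence. The median log2 fold change was -0.56, the value of Ecel1, against a median of 0.00 over all genes kept. In high dose vs. low dose 6 of 7 were also lower (median -0.14, all genes -0.01 with 52.4% lower). In low dose vs. untreated 4 of 7 were lower (median -0.13, all genes 0.01 with 46.6% lower). None was called. The list of ligands and enzymes of the other receptors (12 genes, 6 kept) had 4, 3 and 2 of 6 genes lower at the low dose against untreated, at the high dose against untreated and at the high against the low dose, and none called. Most of these receptors act through Gq signalling, listed here as 16 genes of G proteins, phospholipases, calcium release channels and kinases. The list also holds Gna12 and Gna13, which encode G proteins of another family. Of the 16 genes, 13 were higher at the high than at the low dose and 3 lower, while 52.4% of all genes kept were lower. The median was only 0.09, and none passed the test.

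Other peptide receptors did not share one direction. Of the 74 listed, 33 were kept and none was called, with median log2 fold changes of 0.25 (low dose against untreated), 0.15 (high dose against untreated) and -0.13 (high against low dose). Without G the first and second of these medians were both 0.06, over 35 receptors kept. Between the doses, 19 of 33 (57.6%) were lower, against 52.4% of all genes kept. In the 4 letter sets 7 (21.2%) were lower and 4 were higher, against 11.1% lower over all genes. Oprl1, the nociceptin receptor, stood at 16.3 ± 8.62 CPM untreated and 24.2 ± 4.32 CPM at the high dose (log2 fold change 0.50 ± 0.21, unadjusted p = 0.0406, adjusted p = 0.9999, edgeR). Its lowest value, 3.70 CPM, was that of culture G, without which the log2 fold change was 0.22 ± 0.15 (unadjusted p = 0.177, edgeR). Mchr1, the receptor for melanin-concentrating hormone, stood at 22.8 ± 5.09 CPM at the low and 17.2 ± 2.44 CPM at the high dose (log2 fold change -0.41 ± 0.17, unadjusted p = 0.0368, adjusted p = 0.9999, edgeR) and was lower in the 4 sets. Hcrtr1, an orexin receptor that the study names beside these genes, had 1 to 15 counts per culture and was not kept.

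**Figure D5:**
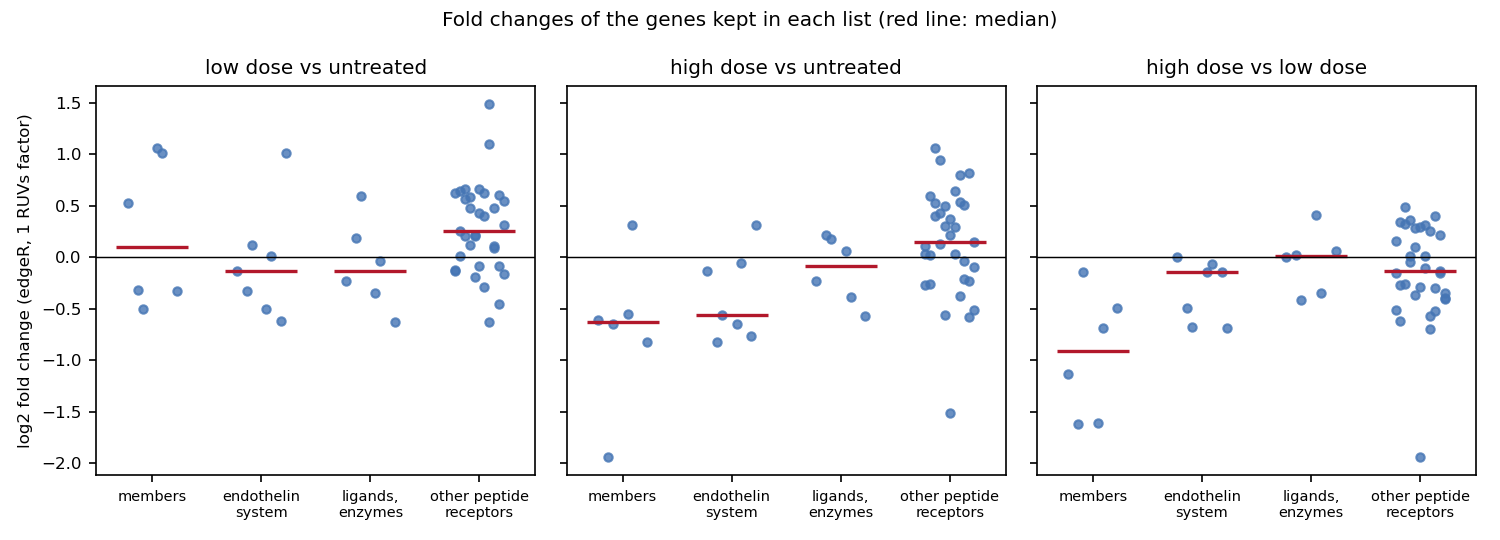
Fitted log2 fold changes (y axis) of the genes kept in each list (x axis) in the 3 comparisons, with 1 point per gene and a red line at the median. The medians of the other peptide receptors (33 genes) were 0.25, 0.15 and -0.13, while those of the endothelin system (7 genes) were -0.13, -0.56 and -0.14.

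The genes whose level ran most like that of a member were found by Spearman rho of log2 CPM over the 12 cultures. For Ednrb they were Cecr5 (0.95), Sbsn (0.93) and Ppp1r15b (0.92), and for Ednra they were Cox15 (0.96), Stard13 (0.94) and Mccc1 (0.94). Rims3 (0.96), Itga11 (0.94) and Cnn3 (0.94) ran most like Edn1, and Cep295 (0.97), Zbtb7c (0.94) and Acadm (0.94) most like Prlhr. Slc8a3, a sodium-calcium exchanger, was near the top for both Cckbr (0.99) and Mas1 (0.98). Mustn1 (0.98) and Grasp (0.98) followed for Cckbr, and Syt12 (0.99) and Adcyap1 (0.98), which encodes the neuropeptide PACAP, for Mas1. Without G every one of these 18 values stayed at 0.918 or above. The values are a description of cultures that share letter sets, picked as the highest of 12271 genes.

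By the RefSeq annotation used, Ednra and Cckbr each share their span with 1 long noncoding RNA gene, and the other 5 members overlap no other gene. The library kit does not mark strand, so reads of these pairs cannot be told apart where their exons overlap.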

How the data were processed

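Poly(A) RNA of 12 cultures was sequenced from TruSeq v2 libraries, which keep no strand. Alignment by the authors used STAR and the rat build rn6, and their deposited values are raw read counts per gene from featureCounts (17337 symbols, 2226 of them at 0 in the 12 cultures). In R 4.3.3, counts were scaled by TMM, 12271 genes were kept by filterByExpr, and edgeR 4.0.16 fitted all 12 cultures with condition and 1 RUVs factor of unwanted variation (all kept genes as controls), since the study names RUVseq without the number of factors. Quasi-likelihood tests were adjusted by Benjamini-Hochberg over all genes kept. Calls needed an adjusted p under 0.05 together with a log2 fold change beyond 0.5. CPM are counts per 1000000 of the TMM-scaled library. Exact two-sided permutation tests on log2(CPM + 1) were run for Edn1, Edn3 and Ednra in 3 comparisons. Alternatives were 0, 2 or 4 factors, a term for the letter sets with and without culture G, DESeq2 1.42.0 or its size factors, no filter on low counts, an offset of 0.1 and each culture left out. The code of the fit was tested on simulated counts with the same spread for all genes and no letter sets, which does not measure its power in these cultures.

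The members and gene lists were chosen with earlier results of these data known. Named are the members, the endothelin, ligand and enzyme lists, other peptide receptors with an unadjusted p under 0.05 (at most 5 per comparison), Hcrtr1, and the 3 kept genes with the highest Spearman rho per member, ties by Pearson r. The values of 2 genes of these lists are not reported here. All 7 symbols matched the RefSeq gene table of assembly GRCr8, which differs from rn6 and was used only to see which genes overlap each other. Transcript lengths were not used, so levels are not compared between genes.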

Additional observations from a re-analysis of the deposited data

Results flagged for a closer look

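Of 42 sets of 4 cultures (7 members and 7 marker sums in 3 conditions), 4 had a culture far from the other 3 by Dixon's criterion, which chance meets in about 1 of 20. Prlhr stood at 28.5 CPM in untreated culture G, where the nearest untreated culture had 3.24 CPM. The endothelial marker sum was 64.0 CPM in the same culture, with 12.2 CPM in the nearest. The astrocyte marker sum was 11856 CPM in low dose culture Q, with 4721 CPM in the nearest, and Q also had the highest Ednrb of the 12 cultures. Edn3 stood at 0.0618 CPM in low dose culture H, which is 1 count against 0 in the other 3.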

How the results depend on the processing

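Of the 18 fitted fold changes of the 6 kept members, 8 kept their sign under the 20 alternatives and 10 did not in at least 1. No gene was called in low dose vs. untreated under any alternative. For high dose vs. untreated, 1 gene was called with 2 factors, 39 with 4 factors, 15 with the letter set block and without G, and 3 with DESeq2. For high dose vs. low dose the counts were 1, 113, 14 and 1. The block with all 12 cultures called 0 genes in each comparison. No pairing is given by the labels, so the block is a setting only. With no factor, Prlhr had log2 fold changes of -2.07 (low dose vs. untreated) and -3.55 (high dose vs. untreated). The causes of these shifts were not tested. For Edn1, high dose vs. untreated was -0.035 with 4 factors. Leaving out 1 culture at a time gave ranges for Edn1 of -0.257 (without N) to 1.35 in low dose vs. untreated, -0.083 (without G) to 0.712 in high dose vs. untreated, where it was -0.023 without P, and -1.08 to 0.447 (without N) in high dose vs. low dose. It turned the sign of Ednrb in high dose vs. low dose (-0.49 with all cultures, 0.078 without Q) and in low dose vs. untreated (0.313 without P), of Cckbr in low dose vs. untreated (-0.062 without N) and in high dose vs. untreated (0.077 without P), of Mas1 in high dose vs. untreated (0.407 without P) and of Prlhr in low dose vs. untreated (0.122 without P, and 0.237 with the block and without G). It gave -0.308 to 0.048 (without B) for Ednra and -1.96 to -0.401 (without Q) for Prlhr in high dose vs. low dose. The differences in mean log2(CPM + 1) ranged from -0.069 to 0.017 (without G) for Edn3 between the high dose and untreated. Between the doses they ranged from -0.554 to 0.223 (without N) for Edn1 and from -0.298 to 0.035 (without B) for Ednra, where it was 0.0042 without O. Depth limits Edn3, and Prlhr and Mas1 in cultures with few counts.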
